A study of Mus musculus with 9 samples.

Results

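The genes described here were 48 genes of the cell cycle, chosen by symbol from a list of genes used in DNA synthesis, in G2 and in mitosis, together with cyclins of G1 and the G1/S step. The rule used symbols and no measured value, although the list was chosen with earlier results of these data known. All 48 were found among the 52550 genes of the count table, and all 48 were among the 18699 genes that passed the filter on low counts and were tested. The samples were spinal cord from adult female C57BL/6N mice on day 7, with 3 samples in each of 3 groups, and every group had a laminectomy. Sham mice had the laminectomy alone. In the SCI group the cord was contused at T10 and DMSO, the vehicle, was injected intraperitoneally. The SCI+FIPI group had an identical contusion and intraperitoneal FIPI, an inhibitor of phospholipase D that was dissolved in DMSO and given daily. The cord was sampled at and around the epicenter, so that resident cells and cells that had entered the lesion were measured together. The comparison of SCI with Sham, called injury below, joins the contusion and the DMSO injection, which cannot be told apart here. That of SCI+FIPI with SCI asks what the drug did after injury. The sources do not say whether a sample was a single mouse or a pool, and the p-values measure only the spread between these samples.

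The cell cycle is driven by cyclin-dependent kinases, which are switched on by cyclins that are made and destroyed in turn. Growth signals raise D-type cyclins, the retinoblastoma proteins are phosphorylated, and E2F factors then turn on genes for DNA synthesis. Later, the DREAM complex is replaced at other promoters by MYBL2 and FOXM1, which drive the genes of G2 and mitosis. In the intact adult spinal cord few cells divide, most of them oligodendrocyte precursors, while after a contusion astrocytes, microglia, endothelial cells, fibroblasts and infiltrating macrophages are known to proliferate around the lesion. MKI67, the protein behind the Ki-67 stain, is found in cycling cells and is used to count them.

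The counts summed to between 20806000 and 24582377 per sample, and the TMM factors that scale them lay between 0.985 and 1.02. Levels are given as CPM, the counts scaled to a common total with these factors. A gene passed both limits, and was called, where its log2 fold change was 0.5 or more in size and its p under 0.05 after Benjamini-Hochberg adjustment over all genes tested (quasi-likelihood test of edgeR). The markers that define spinal cord were abundant in every group. The neuronal gene Snap25 averaged 2057 CPM in the Sham group, the myelin gene Mbp 19400 CPM and the astrocyte gene Gfap 4136 CPM. In whole tissue fewer cells of a type and less RNA per cell cannot be told apart.

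The promoters of these genes are where the E2F and DREAM factors act. Sequences of 5 of them are shown as examples of motifs that differ in frequency between genes of G1 and S phase and those of mitosis. Single promoters need not follow that difference, and the mitosis genes Cdk1 and Ccnb1 both held an E2F motif. RefSeq's promoter windows on GRCm38.p6, from 250 bases before to 50 bases after each gene's start, matched 39 of the 48 genes. They were searched on both strands for the E2F motif (written TTCCCGC as well as TTCGCGC and further as TTGCCGC as well as TTGGCGC), for the CHR element bound by the DREAM complex (TTTGAA as well as TTCGAA) and for the CCAAT box (CCAAT). Capitals mark every match, read on the gene's own strand from 5′ to 3′, so that a CCAAT box on the other strand appears as ATTGG. Positions count from the start, with -1 the base before it, and each stretch begins at -200 and stops before the next annotated exon. Cdk1, Top2a and Ccnb1 were taken by a rule on the size of their change after injury, while Uhrf1 and Mcm6 were added after their values were seen.
Cdk1 (chr10:69352939-69353112, reverse strand, bases -200 to -27): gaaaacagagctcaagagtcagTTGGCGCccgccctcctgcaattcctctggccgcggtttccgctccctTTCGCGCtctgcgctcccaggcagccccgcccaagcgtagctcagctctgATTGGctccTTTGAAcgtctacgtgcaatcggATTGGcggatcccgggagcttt
Top2a (chr11:99024190-99024389, reverse strand, bases -200 to -1): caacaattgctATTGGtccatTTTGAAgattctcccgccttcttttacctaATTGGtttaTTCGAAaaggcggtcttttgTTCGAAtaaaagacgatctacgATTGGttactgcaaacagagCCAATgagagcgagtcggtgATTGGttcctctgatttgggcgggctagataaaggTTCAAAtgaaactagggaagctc
Ccnb1 (chr13:100786571-100786686, reverse strand, bases -200 to -85): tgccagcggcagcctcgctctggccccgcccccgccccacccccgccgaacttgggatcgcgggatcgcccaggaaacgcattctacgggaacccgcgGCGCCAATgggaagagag
Uhrf1 (chr17:56303137-56303320, forward strand, bases -200 to -17): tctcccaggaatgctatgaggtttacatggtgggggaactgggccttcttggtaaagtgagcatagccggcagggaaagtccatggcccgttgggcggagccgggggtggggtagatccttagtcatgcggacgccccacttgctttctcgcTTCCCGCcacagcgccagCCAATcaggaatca
Mcm6 (chr1:128359706-128359905, reverse strand, bases -200 to -1): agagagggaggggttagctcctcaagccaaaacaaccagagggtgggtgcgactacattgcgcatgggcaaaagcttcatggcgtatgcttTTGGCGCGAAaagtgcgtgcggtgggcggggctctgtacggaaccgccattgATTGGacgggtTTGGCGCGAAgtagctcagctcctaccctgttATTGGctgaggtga

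The promoter of Cdk1 held E2F motifs at -178 and -130, and a CHR element at -71 close to a CCAAT box at -80. Top2a had 4 CHR elements and no E2F motif, and 5 CCAAT boxes lay in the stretch shown. In Ccnb1 the E2F match at -102 and the CCAAT box at -99 share letters, and no CHR element of these letters was found in its window. Uhrf1 had an E2F motif at -48 and a CCAAT box at -30. In Mcm6, E2F matches on both strands overlapped each other at -109 and -106 and again at -46 and -43.

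Over the windows as a whole, both a CHR element and a CCAAT box were present in 17 of the 21 promoters of mitosis genes (81.0%), in 4 of the 18 promoters of genes of G1 and S phase (22.2%) and in 7.43% of the 17492 promoters of protein-coding genes. The E2F motif was present in 11 of the 18 promoters of genes of G1 and S phase (61.1%), in 3 of the 21 promoters of mitosis genes (14.3%) and in 12.2% of those of protein-coding genes. Each of these motifs was thus more frequent in the group of genes for which it is known than in the other group. A match describes letters and is not evidence that a factor was bound in these samples. No match says only that the letters searched were not in the window.

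**Figure D1:**
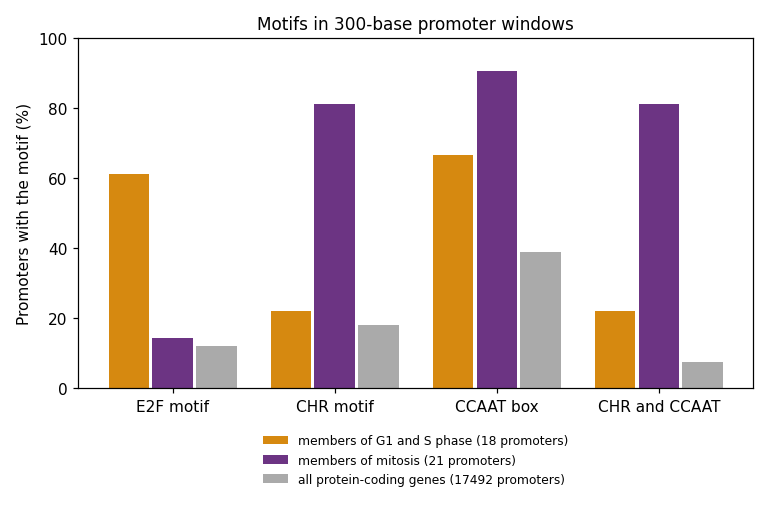
Share of promoter windows, in percent on an axis that starts at 0, that hold each motif on either strand, for the members of G1 and S phase (18 promoters), the members of mitosis (21 promoters) and protein-coding genes (17492 promoters). The bar for CHR and CCAAT together reaches 81.0% for mitosis and 22.2% for G1 and S phase, and that for E2F reaches 14.3% and 61.1%.

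After contusion, 46 of the 48 genes rose past both limits and none fell past them. Of all genes tested, 24.4% rose past both limits and 22.5% fell. The median log2 fold change over the 48 genes was 2.48, a 5.57-fold difference, and over all genes tested it was -0.0031. A log2 fold change of at least 2 was found for 33 of the 48 genes and for 6.11% of all genes. In 46 of the 48 genes every SCI sample lay above every Sham sample, which held for 35.6% of all genes (exact two-sided permutation test, p = 0.1 for each gene, the smallest that 3 samples against 3 allow). The summed level of the 48 genes was 299, 316 and 289.8 CPM in the Sham samples and 1011, 1142 and 1184 CPM in the SCI samples. The groups did not overlap, and the mean went from 302 ± 13.5 to 1113 ± 89.9 CPM (SD, n = 3 each), 3.69 times as much.

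**Figure D2:**
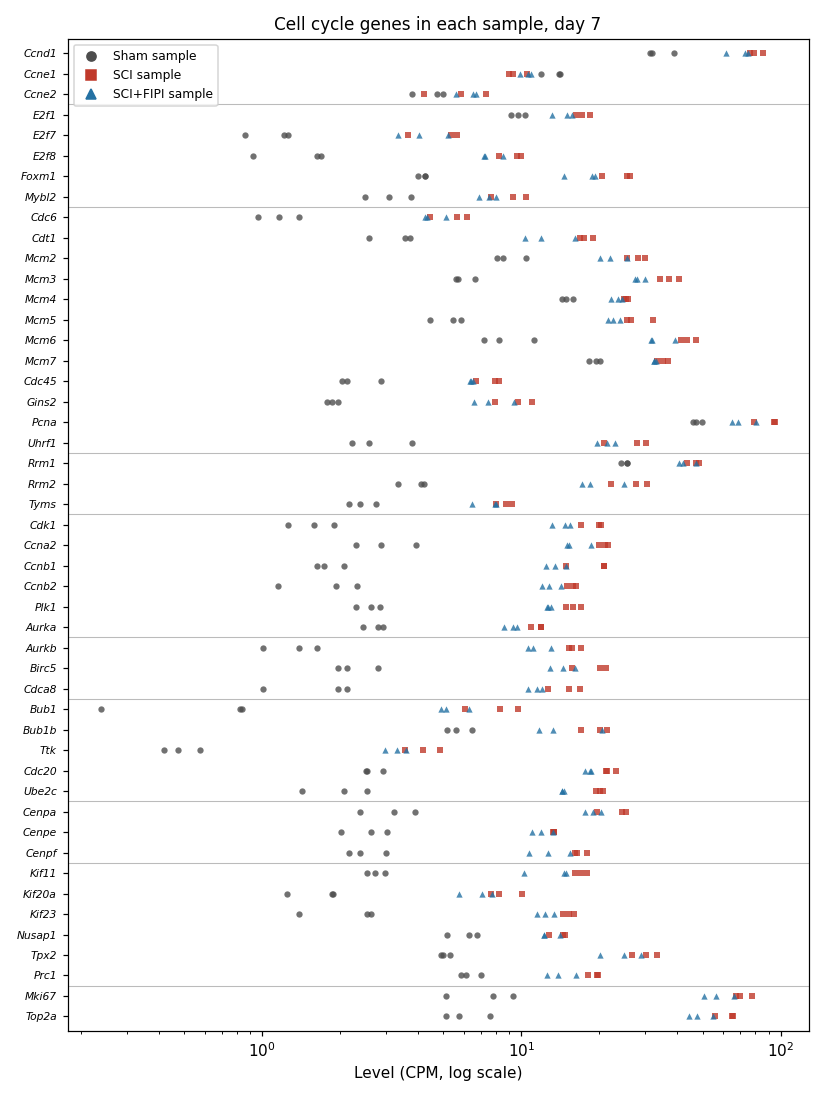
Level of each of the 48 genes in each of the 9 samples, in CPM on a log axis, with circles for Sham, squares for SCI and triangles for SCI+FIPI samples, and with lines between the roles. For 46 genes all squares lie to the right of all circles, Ccne1 is the gene with squares to the left, and for 26 genes all triangles lie to the left of all squares.

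Mki67 (ENSMUSG00000031004, chr7:135689784-135716361, reverse strand of GRCm38) and Top2a (ENSMUSG00000020914, chr11:98992943-99024189, reverse strand of GRCm38), the topoisomerase that untangles replicated DNA, were among the genes with the largest changes. Mki67 had 7.76, 9.29 and 5.14 CPM in the Sham samples and 67.1, 69.8 and 77.8 CPM in the SCI samples. It rose 9.69-fold (log2 fold change 3.28, standard error 0.186, edgeR adjusted p = 2.98e-07). Top2a had 5.13, 7.602 and 5.77 CPM in the Sham samples and 55.7, 64.96 and 65.7 CPM in the SCI samples. It rose 10.04-fold (log2 fold change 3.33, standard error 0.135, edgeR adjusted p = 7.98e-10). For both genes the lowest SCI sample was several times above the highest Sham sample.

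All 6 mitotic cyclins and kinases rose past both limits, and their median log2 fold change was 2.94, within a range from 2.08 to 3.59. Cdk1 (ENSMUSG00000019942, chr10:69335146-69352938, reverse strand of GRCm38), the kinase that starts mitosis, had 1.58, 1.90 and 1.25 CPM in the Sham samples and 16.98, 19.9 and 20.3 CPM in the SCI samples. It rose 12.04-fold (log2 fold change 3.59, standard error 0.150, edgeR adjusted p = 1.2e-10). Its partner cyclin B1, encoded by Ccnb1 (ENSMUSG00000041431, chr13:100778650-100786570, reverse strand of GRCm38), had 2.06, 1.73 and 1.63 CPM in the Sham samples and 14.8, 20.9 and 20.8 CPM in the SCI samples (log2 fold change 3.38, standard error 0.166, edgeR adjusted p = 4.49e-10). The SCI samples of these genes were far from the Sham samples, and SCI sample 1 was the lowest of the 3 in both. Ccnb2, the other B-type cyclin, had a log2 fold change of 3.11 and Ccna2, the cyclin of S phase and G2, of 2.77. Plk1, which drives entry into mitosis, and Aurka, which matures the centrosomes, had log2 fold changes of 2.62 and 2.08.

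The chromosomal passenger complex corrects the attachment of chromosomes to the spindle, and its 3 listed genes rose together with a median log2 fold change of 3.12. Its kinase Aurkb had 1.63, 1.38 and 1.003 CPM in the Sham samples and 15.2, 15.7 and 16.96 CPM in the SCI samples (log2 fold change 3.58, standard error 0.161, edgeR adjusted p = 2.04e-10). Birc5 (survivin) and Cdca8 (borealin), which bring the kinase to the centromere, had log2 fold changes of 3.04 and 3.12. All 5 genes of the spindle checkpoint and of the anaphase-promoting complex rose as well, with a median of 3.09. Bub1, a checkpoint kinase, had 0.2395, 0.821 and 0.836 CPM in the Sham samples and 6.08, 9.72 and 8.27 CPM in the SCI samples (log2 fold change 3.63, standard error 0.304, edgeR adjusted p = 1.65e-07). This was the largest log2 fold change of the 48 genes, and its standard error was also the largest. Bub1 had between 5 and 20 counts in a Sham sample. The checkpoint kinase Ttk (3.09) and the checkpoint protein Bub1b (1.76) rose too. So did Cdc20 (3.04), which activates the anaphase-promoting complex, and Ube2c (3.32), the enzyme that supplies it with ubiquitin.

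The 3 genes of the centromere and kinetochore had a median log2 fold change of 2.74, and all of them rose. They were Cenpa (2.87), the histone variant that marks centromeres, and Cenpf (2.74) and the motor protein gene Cenpe (2.38), both of the outer kinetochore. The 6 genes of the spindle and of cytokinesis rose with a median of 2.47. These were the motors Kif11 (2.63), which pushes the spindle poles apart, and Kif20a (2.36) and Kif23 (2.78), which act at the central spindle, with its bundling protein Prc1 (1.601) and the spindle assembly factors Tpx2 (2.57) and Nusap1 (1.21). Nusap1 had the smallest change of the mitosis genes, with 5.17, 6.26 and 6.73 CPM in the Sham samples and 12.8, 14.8 and 14.5 CPM in the SCI samples. Even there the groups did not overlap.

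All 12 genes of origin licensing and of the replication fork rose past both limits, with a median log2 fold change of 2.26, but over a wide range. Mcm3 had 5.701, 6.61 and 5.6 CPM in the Sham samples and 34.3, 37.3 and 40.5 CPM in the SCI samples (log2 fold change 2.64, standard error 0.0977, edgeR adjusted p = 5.19e-11). Mcm4 had 14.3, 15.9 and 14.8 CPM in the Sham samples and 24.9, 25.8 and 25.2 CPM in the SCI samples (log2 fold change 0.75, standard error 0.0788, edgeR adjusted p = 7.83e-07). These genes encode subunits of the same helicase, and their differences after injury were unequal. Among the other subunits, Mcm5 (2.43), Mcm6 (2.30) and Mcm2 (1.63) lay between them and Mcm7 (0.87) was close to Mcm4. Cdc6 (2.21) and Cdt1 (2.42), which load that helicase at origins, and Cdc45 (1.70) and Gins2 (2.35), which activate it, also rose. Uhrf1, which helps to copy DNA methylation to the new strand, had the largest difference of this role (log2 fold change 3.21, standard error 0.189, edgeR adjusted p = 2.23e-08). Its level was 3.78, 2.59 and 2.22 CPM in the Sham samples and 20.8, 30.1 and 28.01 CPM in the SCI samples. Pcna, the clamp that holds the polymerase on DNA, had 47.2, 49.8 and 46.1 CPM in the Sham samples and 79.3, 95.1 and 94.2 CPM in the SCI samples (log2 fold change 0.91, standard error 0.0881, edgeR adjusted p = 5.36e-07). Its samples did not overlap between the groups either, and its fold change was smaller than that of most of the 48 genes.

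The 3 genes of deoxynucleotide supply rose, with Rrm2 (2.79), the subunit of ribonucleotide reductase that is limiting in cycling cells, above the thymidylate synthase gene Tyms (1.82) and the large reductase subunit Rrm1 (0.89). All 5 transcription factors rose. Foxm1 had 3.98, 4.23 and 4.26 CPM in the Sham samples and 20.5, 25.6 and 26.2 CPM in the SCI samples (log2 fold change 2.53, standard error 0.136, edgeR adjusted p = 1.01e-09). The repressive factors E2f8 (2.72) and E2f7 (2.13) had larger log2 fold changes than E2f1 (0.83), the activator, and Mybl2 was at 1.55.

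The E-type cyclins, which act with CDK2 at the G1/S step, were the exceptions. Ccne1 (ENSMUSG00000002068, chr7:38097984-38107534, reverse strand of GRCm38) had 14.1, 11.9 and 14.0 CPM in the Sham samples and 8.97, 9.304 and 10.5 CPM in the SCI samples. Every SCI sample was below every Sham sample. The log2 fold change was -0.47 (standard error 0.110, edgeR adjusted p = 0.00148), past the limit on p and short of the limit of 0.5 on the fold change. It passed both limits with upper-quartile factors (-0.54), without Sham sample 2 (-0.55) and without SCI sample 3 (-0.54). Ccne2 had 3.78, 4.71 and 4.97 CPM in the Sham samples and 4.19, 5.87 and 7.299 CPM in the SCI samples. These groups overlapped (log2 fold change 0.36, standard error 0.192, edgeR adjusted p = 0.111), and without SCI sample 1 the log2 fold change was 0.55 (edgeR adjusted p = 0.0136), past both limits. The D-type cyclin gene Ccnd1 had 38.8, 32.0 and 31.4 CPM in the Sham samples and 76.1, 79.02 and 85.3 CPM in the SCI samples and rose (log2 fold change 1.24, standard error 0.0935, edgeR adjusted p = 5.37e-08).

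**Figure D3:**
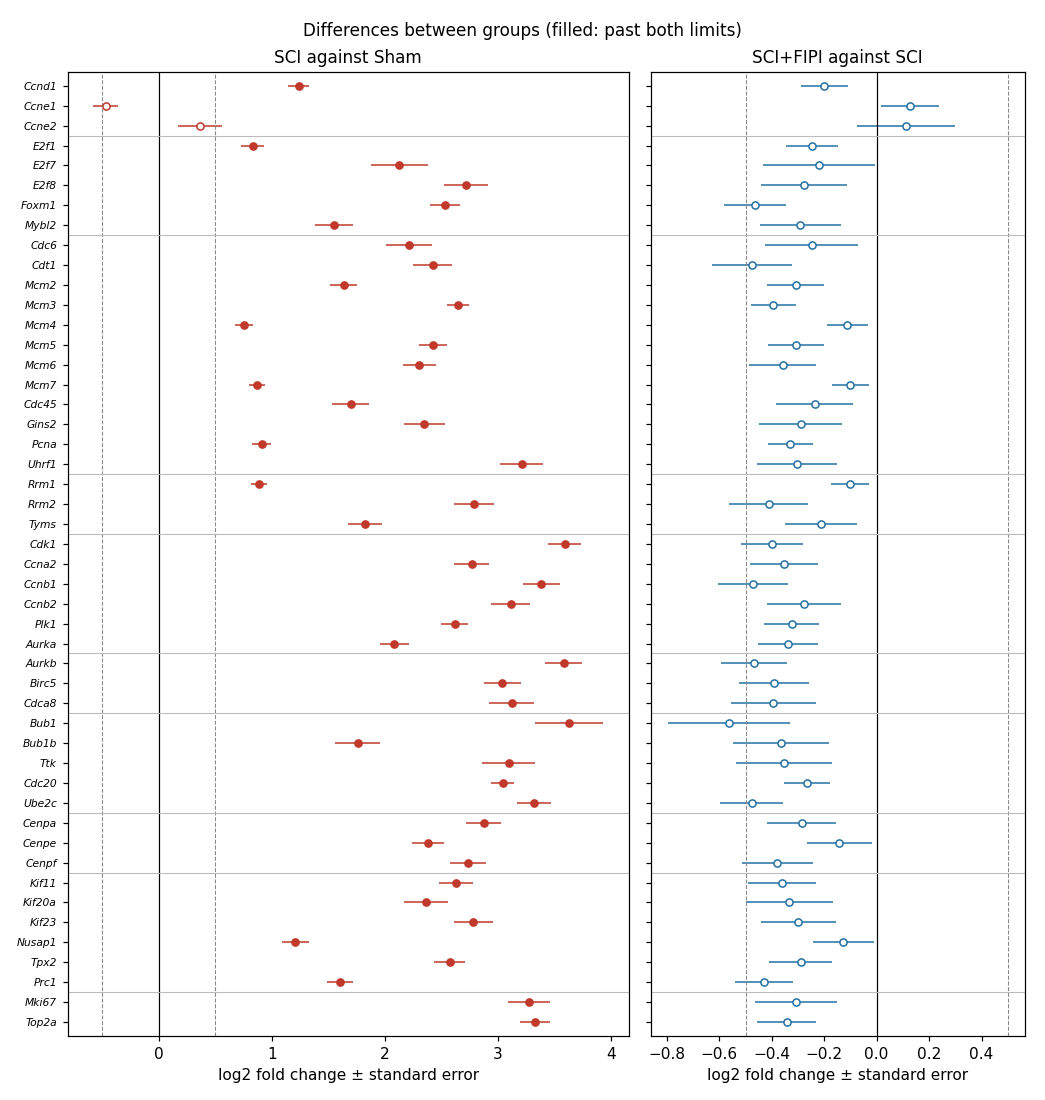
Log2 fold change of each of the 48 genes with its standard error, for SCI against Sham on the left and SCI+FIPI against SCI on the right. Filled points are past both limits, dashed lines mark log2 fold changes of -0.5 and 0.5, and the 2 panels have different scales. On the left 46 points are filled, and on the right none is filled while 46 lie below 0.

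Markers of several cell types moved with the injury, and their part in the rise of the cell cycle genes was not tested. All 7 macrophage and myeloid markers rose past both limits, and their summed level went from between 147 and 267 CPM in the Sham samples to between 5044 and 6221 CPM in the SCI samples, led by Lyz2, the marker of its list with the highest mean CPM over the 9 samples. All 6 fibroblast and pericyte markers rose, with sums between 329 and 926 CPM and between 8840 and 11910 CPM and led in the same sense by Col1a1. Of the microglial markers 3 of 6 rose (sums 282 to 348 and 772 to 890.0 CPM), of the astrocyte markers 3 of 6 (5486 to 5948 and 10770 to 12320 CPM, led by Gfap), of the endothelial markers 4 of 5 (161 to 176 and 352 to 399 CPM, led by Cldn5) and of the oligodendrocyte precursor markers 3 of 5 (248.5 to 266 and 423 to 439 CPM, led by Gpr17). All 6 neuronal markers, led by Snap25, fell (4159 to 4592 and 1268 to 1718 CPM), and so did 3 of the 6 oligodendrocyte markers, led by Mbp (32400 to 33980 and 22750 to 25390 CPM). Of the ependymal markers 1 of 5 rose and 1 fell (57.3 to 74.0 and 68.3 to 72.8 CPM, led by Foxj1), and none of the 4 Schwann cell markers tested was called, with Pmp2 at 0 in all Sham samples.

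Blood, marrow, bone and muscle markers were low in every sample. The lymphocyte markers summed to between 1.34 and 9.37 CPM, led by Cd79a, and the marrow granulocyte precursor markers to between 2.19 and 9.71 CPM, led by Prtn3. The erythroid precursor markers summed to between 2.59 and 19.1 CPM, led by Alas2, the bone markers to between 9.05 and 33.4 CPM, led by Dmp1, and the skeletal muscle markers to between 6.14 and 35.8 CPM, led by Acta1. After injury 2 of the 4 lymphocyte markers tested, 1 of 5 erythroid precursor markers and 1 of 5 bone markers fell past both limits and none of the others of these lists was called. Apart from Pmp2, no marker of any list was at 0 in all samples of a group.

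The rest of the cell cycle machinery was read from 5 further lists of genes in the same comparison. Of 7 cyclin-dependent kinase inhibitors, which act against the kinases above, 5 rose and none fell past both limits. The INK4 inhibitors Cdkn2c and Cdkn2b, which bind CDK4 and CDK6, had log2 fold changes of 2.48 and 2.36. Cdkn2a, which encodes p16 and ARF, had 3 counts in the Sham samples together and 141 in the SCI samples. At equal depth this is a ratio of 44.5, with an exact 95% interval from 14.9 to 218 that covers counting error only. Named after their values were seen, Cdkn1a (1.41), the p21 gene, and Cdkn1c (0.58), the p57 gene, were the other inhibitors that rose. Cdkn1b, the p27 gene, was at 0.03 (edgeR adjusted p = 0.762) and Cdkn2d at -0.17 (edgeR adjusted p = 0.0464).

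Of 9 genes listed as G1 cyclins, kinases and their activators, 7 rose and none fell. The largest changes were those of Cdc25c (3.70), Cdk6 (2.71), the kinase partner of D-type cyclins, and Cdk2 (2.08), the partner of the E-type cyclins. Cdc25c encodes a phosphatase that activates CDK1, the kinase that starts mitosis, so the list is not confined to G1. Of 15 genes of the retinoblastoma family, E2F partners and DREAM complex, 6 rose and 3 fell, with a median log2 fold change of 0.30. E2f2 (1.96), an activating E2F, the p107 gene Rbl1 (1.53) and E2f4 (0.80), the E2F of quiescent cells, rose. The 3 that fell, named after their values were seen, were Lin52 (-0.63), a core subunit of DREAM, Tfdp2 (-0.54), a DNA-binding partner of E2F, and the repressor E2f6 (-0.50).

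Other DNA replication genes were less uniform than the 48, with 14 of 23 that rose, 1 that fell and a median log2 fold change of 0.71. Chaf1b (3.05), which places histones on new DNA, Gins1 (2.28), of the replicative helicase, and Dbf4 (2.17), which activates the kinase CDC7, had the largest changes. Cdc7 itself was the gene that fell (-0.62), named after its value was seen. Of 37 other mitosis genes 34 rose and 1 fell, with a median of 2.39, led by Kif2c (3.80), a microtubule-depolymerizing motor of the centromere, Melk (3.71), a mitotic kinase, and Cdca5 (3.62), which protects cohesion between sister chromatids. The gene that fell, named after its value was seen, was Anln (-0.74), a scaffold of the cleavage furrow that is also abundant in myelinating oligodendrocytes. It had 152, 161 and 162 CPM in the Sham samples and 111, 91.1 and 82.1 CPM in the SCI samples.

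**Figure D4:**
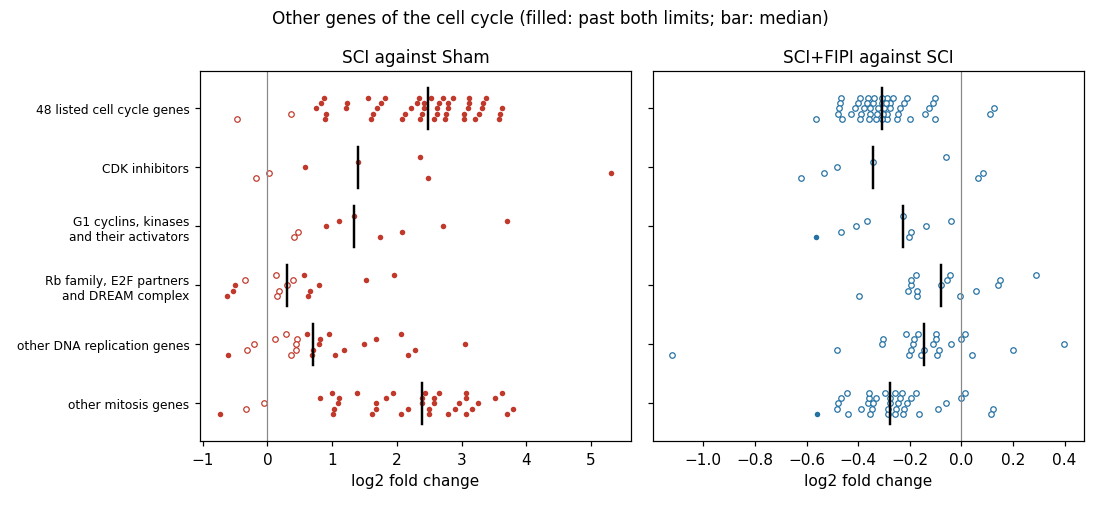
Log2 fold change of each gene of the 48 and of the 5 further lists of cell cycle genes, for SCI against Sham on the left and SCI+FIPI against SCI on the right, with filled points past both limits and a bar at each list's median. On the left the medians are 2.48 for the 48 genes and 2.39 for other mitosis genes, against 0.30 for the retinoblastoma, E2F and DREAM list. On the right the filled points are Myc and Cdca2.

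With FIPI after injury, none of the 48 genes passed both limits by edgeR, against 3.06% of all genes tested (0.695% lower, 2.36% higher). At an adjusted p under 0.05 without the limit on the fold change there were 8 of 48, all lower, while 3.58% of all genes were lower at that limit. At an unadjusted p under 0.05 there were 27 of 48, all lower, against 11.5% of all genes. DESeq2 called 0 and limma-voom 1 of the 48, Cdt1, at both limits, against 3.47% and 3.39% of all genes in those fits. The log2 fold change was below 0 for 46 of the 48 genes, with a median of -0.31, and for 50.3% of all genes, with a median of -0.0013. In 26 of the 48 genes every SCI+FIPI sample lay below every SCI sample, and in none above, while 14.5% of all genes had such a separation downward (exact permutation test, p = 0.1 for each gene, the smallest possible). The summed level of the 48 genes was 994, 875 and 847 CPM in the SCI+FIPI samples against 1011, 1142 and 1184 CPM in the SCI samples. The means were 905 ± 78.3 and 1113 ± 89.9 CPM (SD, n = 3 each), 18.7% lower with FIPI. SCI+FIPI sample 1 was near SCI sample 1, and the groups did not overlap.

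The 8 genes with an adjusted p under 0.05 were genes of DNA replication and of G2 and mitosis. None of the 3 listed cyclins of G1 and the G1/S step was among them. Foxm1, the transcription factor of G2 and mitosis, had 20.5, 25.6 and 26.2 CPM in the SCI samples and 19.2, 18.7 and 14.6 CPM in the SCI+FIPI samples. It was 1.38-fold lower with FIPI (log2 fold change -0.46, standard error 0.119, edgeR adjusted p = 0.0258). Mcm3, a subunit of the replicative helicase, had 34.3, 37.3 and 40.5 CPM and 29.99, 27.4 and 27.9 CPM (log2 fold change -0.39, standard error 0.0852, edgeR adjusted p = 0.0126). For both genes all SCI+FIPI samples were below all SCI samples. Pcna had 79.3, 95.1 and 94.2 CPM and 80.6, 64.8 and 68.5 CPM (log2 fold change -0.33, standard error 0.0865, edgeR adjusted p = 0.0304). There the groups overlapped, since SCI+FIPI sample 1 was above SCI sample 1. Cdk1 had 16.98, 19.9 and 20.3 CPM and 15.5, 14.7 and 13.1 CPM (log2 fold change -0.40, standard error 0.118, edgeR adjusted p = 0.0461). Ccnb1, which encodes the cyclin that Cdk1 needs, had 14.8, 20.9 and 20.8 CPM and 14.9, 13.4 and 12.5 CPM (log2 fold change -0.47, standard error 0.133, edgeR adjusted p = 0.0394). The groups were apart for Cdk1 and overlapped for Ccnb1, where the lowest SCI sample was just under the highest SCI+FIPI sample.

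The other 3 of the 8 act in mitosis and at its end. Aurkb had 15.2, 15.7 and 16.96 CPM in the SCI samples and 12.96, 11.1 and 10.7 CPM in the SCI+FIPI samples (log2 fold change -0.47, standard error 0.126, edgeR adjusted p = 0.0318). Ube2c, the ubiquitin-conjugating enzyme of the anaphase-promoting complex, had 19.4, 20.2 and 20.7 CPM and 14.3, 14.4 and 14.6 CPM (log2 fold change -0.48, standard error 0.120, edgeR adjusted p = 0.0247). Its samples were close together within each group and far apart between the groups. Prc1, the bundling protein of the central spindle, had 18.1, 19.6 and 19.7 CPM and 16.3, 13.9 and 12.5 CPM (log2 fold change -0.43, standard error 0.109, edgeR adjusted p = 0.0251), again without overlap. The 8 genes had log2 fold changes between -0.48 and -0.33, all short of the limit of 0.5.

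Other estimates of this size or near it did not pass the limit on the adjusted p, and some of them had wider errors. Bub1 had the largest estimate, -0.56, with a standard error of 0.233 (edgeR adjusted p = 0.15), from 6.08, 9.72 and 8.27 CPM in the SCI samples and 6.26, 5.13 and 4.91 CPM in the SCI+FIPI samples. These samples overlapped. Cdt1, the licensing factor, was at -0.48 with a standard error of 0.151 (edgeR adjusted p = 0.0635), and its SCI+FIPI samples had 16.1, 10.3 and 11.9 CPM against 17.4, 16.8 and 18.9 CPM. Mki67 had 67.1, 69.8 and 77.8 CPM and 66.2, 56.3 and 50.8 CPM (log2 fold change -0.31, standard error 0.156, edgeR adjusted p = 0.261), and Top2a had 55.7, 64.96 and 65.7 CPM and 55.1, 47.7 and 44.3 CPM (log2 fold change -0.34, standard error 0.112, edgeR adjusted p = 0.0768). For both of these proliferation markers all SCI+FIPI samples lay below all SCI samples, with SCI+FIPI sample 1 next to SCI sample 1. An adjusted p above 0.05 does not show that the levels were alike.

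By role, the median log2 fold change with FIPI was -0.39 for the chromosomal passenger complex, -0.37 for the spindle checkpoint and anaphase-promoting complex, -0.35 for mitotic cyclins and kinases and -0.33 for Mki67 and Top2a. It was -0.32 for the spindle and cytokinesis, -0.31 for origins and forks, -0.29 for the centromere and kinetochore, -0.28 for the transcription factors and -0.21 for deoxynucleotide supply. The smallest negative estimates were those of Mcm7 (-0.10), Rrm1 (-0.10) and Mcm4 (-0.11), which also had small changes after injury. The E-type cyclins were again apart, with estimates of 0.13 for Ccne1 (edgeR adjusted p = 0.519) and 0.11 for Ccne2 (edgeR adjusted p = 0.766), and Ccnd1 was at -0.20 (edgeR adjusted p = 0.184). Of the further lists, 0 of 7 inhibitors and 1 of 9 genes of the list of G1 cyclins, kinases and their activators passed both limits with FIPI by edgeR. So did 0 of 15 genes of the retinoblastoma, E2F and DREAM list, 0 of 23 replication genes and 1 of 37 mitosis genes. At an unadjusted p under 0.05 the counts in either direction were 3, 6, 5, 3 and 19, against 25.2% of all genes tested. Myc, a transcription factor that promotes entry into the cycle, had 20.5, 22.7 and 25.5 CPM in the SCI samples and 13.8, 16.6 and 16.2 CPM in the SCI+FIPI samples (log2 fold change -0.56, standard error 0.153, edgeR adjusted p = 0.0384). Cdca2, which brings a phosphatase to chromosomes at the end of mitosis, had 8.303, 8.77 and 8.44 CPM and 6.62, 5.85 and 4.87 CPM (log2 fold change -0.56, standard error 0.156, edgeR adjusted p = 0.0375). In both genes the groups did not overlap.

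The samples within a group were not interchangeable for these genes. SCI sample 1 was the lowest of the SCI samples for 47 of the 48 genes, against 34.9% of all genes tested, and SCI sample 3 was the highest for 34. SCI+FIPI sample 1 was the highest of its group for 37 of the 48 genes, against 35.5% of all genes, and SCI+FIPI sample 3 was the lowest for 32, against 36.1% of all genes. The estimates above depend on which samples are in the fit. Without SCI+FIPI sample 1, 8 of the 48 genes passed both limits, all lower (Rrm2, Prc1, Cenpf, Foxm1, Cdt1, Bub1b, Ccnb1 and Aurkb), and without SCI sample 1, 4 did (Rrm2, Foxm1, Birc5 and Ccnb1). Of all genes, 1.09% and 1.35% were lower past both limits in these fits, and the calls in either direction were 584 and 1038 against 572 with all samples. Without SCI sample 3 or without SCI+FIPI sample 2, none of the 48 genes had an adjusted p under 0.05. Without SCI sample 2 or SCI+FIPI sample 3, 1 of the 48 did. Of all genes, 1.15%, 0.309%, 0.938% and 1.38% were lower at that limit in these 4 fits. At an unadjusted p under 0.05 these 4 fits had 16, 19, 21 and 15 of the 48 genes, all lower, against 8.22%, 7.51%, 8.46% and 9.54% of all genes. The median log2 fold change over the 48 genes stayed below 0 in each of these fits.

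**Figure D5:**
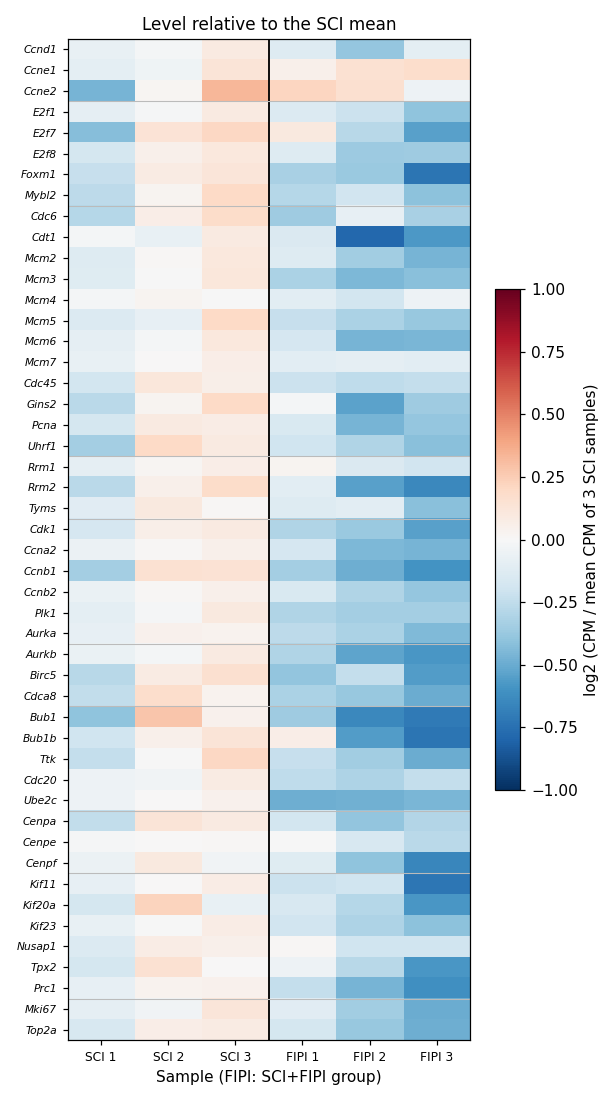
Level of each of the 48 genes in each injured sample as log2 of its CPM over the mean CPM of the 3 SCI samples, on a color scale from -1 (blue) to 1 (red), with a line between the SCI and SCI+FIPI samples. The column of SCI sample 1 is bluer than those of SCI samples 2 and 3, being the lowest of the 3 for 47 genes, and among the SCI+FIPI samples the palest column is that of sample 1, the highest of its group for 37 genes.

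Cell type markers differed between the injured groups as well, and their part in the lower levels of the cell cycle genes was not tested. The macrophage and myeloid markers summed to 5352, 5044 and 6221 CPM in the SCI samples and to 4860, 3586 and 3935 CPM in the SCI+FIPI samples, 25.5% lower in the mean. Sample 1 was the highest of the SCI+FIPI samples here too, while SCI sample 1 was not the lowest of its group. All 7 of these markers had every SCI+FIPI sample below every SCI sample, as did 14.5% of all genes tested. By edgeR 0 of 7 passed both limits. At an unadjusted p under 0.05 there were 2, both lower, against 11.5% of all genes. Lyz2 alone averaged 4529 CPM in the SCI samples, where the sum of the 7 markers averaged 5539 CPM. The microglial markers summed to between 649 and 725 CPM with FIPI (19.1% lower), the fibroblast and pericyte markers to between 8172 and 10480 CPM (15.6% lower), the endothelial markers to between 271 and 350.1 CPM (16.3% lower), the oligodendrocyte precursor markers to between 359 and 388 CPM (13.6% lower) and the astrocyte markers to between 10620 and 11150 CPM (6.58% lower), and none of these lists had a marker past both limits. The neuronal markers summed to between 2044 and 2377 CPM, above all SCI samples, and 4 of 6 rose. The oligodendrocyte markers summed to between 23340 and 27600 CPM. By edgeR 0 of 6 were called, with 0 at an unadjusted p under 0.05, against 25.2% of all genes tested. Of the remaining lists, 1 of 5 ependymal markers was lower and 1 of 5 bone markers and 1 of 4 marrow granulocyte precursor markers were higher past both limits, and no marker of Schwann cells, lymphocytes, erythroid precursors or muscle was called. SCI+FIPI sample 1 stood apart from samples 2 and 3 in some of these lists. The marrow granulocyte precursor markers summed to 3.82, 3.68 and 2.19 CPM in the SCI samples and to 2.503, 9.71 and 9.56 CPM in the SCI+FIPI samples, and the bone markers to 12.6, 9.055 and 10.7 CPM and to 11.9, 21.5 and 33.4 CPM. The Schwann cell marker Prx, named after its values were seen, had 75.7, 57.1 and 61.1 CPM and 38.0, 107 and 104.6 CPM. In these 3 cases the sample that was highest of its group for 37 of the 48 genes was the lowest. The sums of the lymphocyte, erythroid precursor and muscle markers overlapped between the groups.

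Against Sham, the SCI+FIPI group still had 46 of the 48 genes past both limits, all higher, where 21.2% of all genes rose. The median log2 fold change was 2.18, and 47 of the 48 genes had every SCI+FIPI sample above every Sham sample, which held for 33.4% of all genes. The Sham samples and the SCI+FIPI samples each enter another comparison above, so that the fold changes are not independent of those. For Mki67 the log2 fold changes from Sham were 3.28 in SCI and 2.97 in SCI+FIPI, for Cdk1 3.59 and 3.19, for Foxm1 2.53 and 2.07, and for Pcna 0.91 and 0.58. The summed level of the 48 genes with FIPI was 3.00 times the Sham mean. Ccne1 was again the gene below Sham, at -0.35 (edgeR adjusted p = 0.0135), and Ccne2 was at 0.47 (edgeR adjusted p = 0.0453), with neither past the limit on the fold change. The call of Pcna (0.58) was lost without SCI+FIPI sample 1, at 0.48.

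Levels of different genes were compared per length, as FPKM, the count over the sample's total and over the exonic length. Pcna had the highest level of the 48 genes in all 3 groups, with 20.04 ± 1.06 FPKM in Sham, 36.8 ± 3.57 in SCI and 29.8 ± 3.40 in SCI+FIPI (SD, n = 3 each). Ccnd1 was next in each group, with 7.28 ± 0.859, 16.8 ± 0.993 and 14.9 ± 1.56 FPKM. Below these the order changed with injury. Ccne1 was the third in Sham, at 5.04 ± 0.414 FPKM, and at place 30 in SCI, at 3.56 ± 0.302 FPKM. Cdc20 went from place 11, at 1.43 ± 0.118 FPKM, to the third, at 11.6 ± 0.589 FPKM, ahead of Ccnb2 at 10.2 ± 0.397 FPKM and Mcm3 at 9.83 ± 0.815 FPKM, and the last 2 of these differed by less than their SDs. Ttk and E2f7 were at the bottom in every group, with 0.842 ± 0.129 and 0.536 ± 0.118 FPKM in SCI.

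For some of the 48 genes the counts could include reads of another gene, because the libraries marked strand while the strand setting of the counting is not given in the sources used here. Gins2 shares 67.3% of its exonic bases with Gse1 on the opposite strand, Kif20a 29.3% with Cdc23, Ccnd1 23.4% with LTO1, Ube2c 22.8% with Tnnc2, Ccne2 17.4% with Ints8, Ccna2 12.5% with Exosc9, E2f8 11.2% with Gm2788 and Prc1 11.1% with Rccd1. For Ube2c and E2f8 the partners had at most 3 and 9 counts in a sample. Other partners had more counts in Sham samples than the gene itself. There Gse1 had 1045 to 1109 counts and Gins2 37 to 47, and Cdc23 had 811 to 994 and Kif20a 26 to 45. Ints8 had 465 to 623 and Ccne2 79 to 119, and Exosc9 had 308 to 379 and Ccna2 48 to 91. Rccd1 had 276 to 320 and Prc1 140 to 146. LTO1, at 386 to 403, was below Ccnd1, at 741 to 809. Copies elsewhere in the genome share sequence with Ccnb1 (42.1% of the 50-base stretches of its longest transcript), Pcna (31.8%), Mcm7, Mybl2, Uhrf1 and Cdc20. In a sample, Ccnb1-ps had at most 3 counts and Pcna-ps2 at most 9. Gm15953, a copy of Uhrf1, had between 12 and 16 counts in the Sham samples, where Uhrf1 had between 53 and 79, and at most 18 in any sample. Counts of the copies of Mcm7 and Mybl2 were not analysed here, and how the counting shared out such reads is not given in the sources used here.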

How the data were processed

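Polyadenylated RNA was read on the Illumina platform with a kit that marks the second strand. After removing poor reads and adapters, the authors deposited raw counts per gene for 9 samples, without normalization. The submitters' processing notes name GRCm38 and R 4.2.3, and the aligner, the counting program and its strand setting are not given in the sources used here. Of the 52550 gene identifiers, 52403 are in GENCODE M21 on GRCm38, which gave symbols, positions and exonic lengths.

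The counts were fitted with edgeR 4.0.16 under R 4.3.3, using TMM factors, filterByExpr by group, a robust quasi-likelihood fit of all 9 samples with one mean per group and Benjamini-Hochberg adjustment over 18699 genes. Replicates had a common dispersion of 0.00866 (biological coefficient of variation 9.3%) with 6 residual degrees of freedom. The limits, a log2 fold change of 0.5 and an adjusted p of 0.05, follow the study's methods, which name no test. Log2 CPM with a prior count of 2 entered the permutation tests. Samples of a group differed by more than sampling noise (chi-square per gene 6.76 to 13.2), so none was merged. Alternatives used DESeq2 1.42.0 and limma 3.58.1, other factors, filters, groups and fold limits, the replicate number as a block, and each sample left out. Motifs, intervals and figures used Python 3.11.15, pandas 2.3.3, scipy 1.17.1 and matplotlib 3.10.9. The 48 genes and all other lists were chosen with earlier results of these data known. Of each further list, the text names the 3 genes past both limits with the largest change after injury, every gene called with FIPI, and of each marker list the gene with the highest mean CPM, which for the microglial and Schwann cell lists is not reported here. Promoters were taken from genes with a CHR element and a CCAAT box before the start, and from genes with an E2F motif, the 2 of each with the largest change, without chromosome 18.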

Additional observations from a re-analysis of the deposited data

How the results depend on the processing

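Among the 48 genes, the numbers called after injury (46, all higher) and for SCI+FIPI against Sham (46) stayed within 1.5 times under every alternative run, at 46 to 47 and 45 to 47 with each sample left out in turn. For SCI+FIPI against SCI the count of 0 became 8 with no limit on the fold change, 1 with no filter (Bub1), 1 with limma-voom (Cdt1) and between 0 and 8 with a sample left out, all lower. With no filter, 25 of the 48 genes had an adjusted p under 0.05, all lower, against 8, and the cause was not tested. Of all genes in the fit with no filter, 3.84% were lower at that limit and 2.34% passed both limits. Ccne2, at 0.11 in that comparison, lay between -0.069 (without SCI sample 1, adjusted p = 0.84, a reversed sign) and 0.31 (without SCI sample 3) with a sample left out. Of the single-gene values in SCI+FIPI against SCI, 800 kept their side of both limits, 14 passed them and 1 reversed.

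Over all genes, the calls after injury went from 8780 to 5059 at a log2 fold change of at least 1. Those of SCI+FIPI against SCI went from 572 to 1800 with no fold limit, to 65 at a limit of 1 and to between 189 and 1038 with a sample left out, and those of SCI+FIPI against Sham went from 7128 to 11060 and 3376. Upper-quartile factors shifted the median of all genes after injury to -0.0676. With at least 10 counts in every sample, 47 of the 48 genes could be tested, without Bub1, which had as few as 5 counts in a Sham sample.

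Deviations of same-numbered samples correlated between -0.0726 and 0.1085, and those of samples with different numbers between -0.1081 and 0.0889. With 3 samples in a group, these values cannot decide whether the replicate number pairs the samples. With the number as a block, 46, 0 and 46 of the 48 genes were called in the 3 comparisons. With FIPI, 5 instead of 8 had an adjusted p under 0.05, all lower, against 2.75% of all genes lower at that limit.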
